A study of Drosophila melanogaster with 2 samples.

Results

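The peaks described here are the reproducible Pita binding sites at stand-alone promoters of Drosophila melanogaster. These are promoters that do not face a neighbouring protein-coding promoter within 1000 bp. Members were the summits of the reproducible peak list (the optimal list of the authors, made with the irreproducible discovery rate, IDR) on the dm6 assembly that lay within 500 bp of an annotated transcription start site (TSS) but not within 500 bp of a head-to-head TSS. A head-to-head TSS was a protein-coding TSS with a protein-coding TSS of the opposite strand within 1000 bp upstream. This rule gave 545 of the 1338 summits, with 268 at head-to-head promoters and 525 away from promoters. Of the members, 110 were shoulder summits, which lay within 300 bp of a stronger summit of the list, and the other 435 are called lead members. Lead summits numbered 194 at head-to-head promoters and 451 away from promoters.

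The embryos were of the Pita-GFP strain, a transgenic line with GFP fused to the C-terminus of Pita, and were collected at 0 to 24 hours from both sexes together. The 2 libraries are biological replicates 1 and 3 of 1 group, from chromatin sonicated to 200 to 800 bp. The description in the labels names an anti-GFP antibody, while the antibody field names pita, and the control named in the labels was not analysed here. The whole embryo was used, so values are averages over its cell types and over this span of development.

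Pita is a zinc-finger protein with an N-terminal zinc-finger-associated domain (ZAD), and belongs to the architectural proteins of the fly. It is known from the bithorax complex, where it binds boundaries such as Fab-7 and Mcp that keep neighbouring regulatory domains apart, and it recruits the co-factor CP190. Architectural proteins of this class are also found close to the promoters of many active genes, and CTCF is another such protein with a DNA sequence of its own.

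Most lead members carried one long sequence under the summit. A matrix of 19 bp was learned on lead summits that were not members, starting from the word CACAAACC. The starting word was required to end in AACC, an ending known from earlier results on the whole list, members included, and members entered no later step. Position 4 was A in 93.6% of its sites, position 5 was G in 78.0% and position 6 was C in 81.3%. The last 3 positions were A, C and C in 85.2%, 97.8% and 96.5%, so that most sites end in ACC, and between these ends position 10 was G in 76.5% and position 12 was C in 73.2%. The sites below are those of the 10 lead members of highest signal and are shown because the strongest peaks all held one. Each is read on the strand on which it ends in the CC, with the 19 bases of the site in capitals and 5 genomic bases on either side, from the RefSeq sequence of dm6. On the plus strand were those of RpL30 (chr2L:19009352-19009380) and MCU (chr3L:6550282-6550310). On the minus strand were those of ATPsynC (chr3R:31219692-31219720), cib (chrX:4105860-4105888), Abl (chr3L:16647987-16648015), Lk6 (chr3R:11764565-11764593) and ec (chrX:3811473-3811501). Also on the minus strand were those of Mpcp2 (chr3L:14537471-14537499), Unc-115a (chr3R:9705540-9705568) and PhKgamma (chrX:11695031-11695059).
ATPsynC: aaatgTGTAGCCAGGACTTGCACCgtgga
RpL30: ccacaATTAGCGTGGACACGCACCgaaac
cib: attcaTTTAGCAGAGACACGAACCacatc
Abl: attgcATTAGCCGAGTTTCTTACCaaact
MCU: ccacaTTTATCGAGTTCAGGAACCaaaag
Lk6: aaataAACAGCGAAGTTCTCAACCatatg
ec: cttgcTTTAGCCAAGACTCAAACCcactt
Mpcp2: ggcgcCTGAGCGTGGACTCGAACCatctg
Unc-115a: tcttcCACAGCCGAGCTCCCCACCtttcc
PhKgamma: taattGTTAGCTAAGACACACCCCgacca
All 10 keep the A of position 4 and the C of position 6 and end in CC. All but that of MCU also have G at positions 5 and 10, while other bases between vary.

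The place of the site within a promoter is shown by the 150 bases before the TSS nearest to the summit, read on the strand of the gene from far to near, for 5 of the strongest promoters. The site is in capitals, and the TSS follows the last base. The windows are those of ATPsynC (chr3R:31219631-31219780), RpL30 (chr2L:19009307-19009456), Abl (chr3L:16647883-16648032), Lk6 (chr3R:11764458-11764607) and Unc-115a (chr3R:9705418-9705567), all on the minus strand.
ATPsynC: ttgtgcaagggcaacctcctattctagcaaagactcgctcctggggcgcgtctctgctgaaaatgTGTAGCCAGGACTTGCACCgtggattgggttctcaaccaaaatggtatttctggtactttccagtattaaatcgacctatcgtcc
RpL30: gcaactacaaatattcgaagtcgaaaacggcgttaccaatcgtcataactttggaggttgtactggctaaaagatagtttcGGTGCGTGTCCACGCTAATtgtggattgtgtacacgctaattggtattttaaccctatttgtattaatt
Abl: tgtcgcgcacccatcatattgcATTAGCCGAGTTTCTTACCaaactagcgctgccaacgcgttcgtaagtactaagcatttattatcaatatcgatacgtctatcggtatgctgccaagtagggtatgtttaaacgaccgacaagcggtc
Lk6: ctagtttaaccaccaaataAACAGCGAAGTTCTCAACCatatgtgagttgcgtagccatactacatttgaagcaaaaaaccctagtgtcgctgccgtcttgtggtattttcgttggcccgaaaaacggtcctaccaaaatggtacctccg
Unc-115a: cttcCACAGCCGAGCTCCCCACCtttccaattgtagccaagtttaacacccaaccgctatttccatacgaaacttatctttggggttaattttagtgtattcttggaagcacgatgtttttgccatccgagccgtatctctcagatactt
In RpL30 the site lies on the strand opposite to the gene, so its CC end appears here as GG at the far side, and in the other 4 it lies on the strand of the gene. A member without a match is shown for contrast. It is the promoter of Pomp (chr2L:20787506-20787655, plus strand), whose product helps to assemble the proteasome and whose peak was the strongest without the site.
Pomp: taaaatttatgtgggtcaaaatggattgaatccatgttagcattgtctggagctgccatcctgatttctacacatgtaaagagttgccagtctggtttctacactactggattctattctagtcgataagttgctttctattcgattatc

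Most stand-alone promoter peaks held the site. It lay within 50 bp of the summit in 293 of 435 lead members, or 67.4% (62.7 to 71.7%, exact binomial interval at 95%). In flank windows of the same length, centred 250 bp to the left of the same summits on the plus strand, it lay in 20 of 435, or 4.60% (2.83 to 7.01%, exact McNemar test, two-sided, p = 1.91e-75). The threshold for a match was set so that 5% of flank windows of the summits used for learning exceed it. The centre of the site was within 25 bp of the summit in 202 of 293 lead members (68.9%), with a median absolute distance of 18 bp. A further match that did not overlap the best one lay in the same window of 50 bp on either side in 106 of the 293 (36.2%, 30.7 to 42.0%). Among the shoulder summits, 10 of 110 (9.09%) held the site. Since peaks are not replicates, p-values here describe this list of peaks and not the spread between animals, and the intervals cover the counting of peaks alone.

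Stand-alone promoter peaks held the site less often than head-to-head peaks and more often than peaks away from promoters. For each of these comparisons the matrix was learned on summits of the class left out of it, so the count among members shifts slightly. With the matrix from non-promoter summits, 301 of 435 lead members (69.2%, 64.6 to 73.5%) held the site, against 156 of 194 head-to-head lead summits (80.4%, 74.1 to 85.8%). The odds ratio was 0.547 (two-sided Fisher's exact test, p = 0.00725 after Benjamini-Hochberg adjustment over 6 class comparisons). With the matrix from head-to-head summits, 294 of 435 lead members (67.6%, 63.0 to 72.0%) held it, against 232 of 451 non-promoter lead summits (51.4%, 46.7 to 56.1%), an odds ratio of 1.97 (adjusted p = 3.40e-06, same exact test). With shoulder summits kept, the odds ratio against head-to-head peaks was 0.811 and did not pass (adjusted p = 0.261, same exact test).

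The site was also read across promoters without regard to peaks. Of 12031 stand-alone protein-coding TSSs, 801 (6.66%) had a match in a window reaching 50 bp to either side of a point 100 bp upstream. A member summit lay within 500 bp of a TSS of the gene for 188 of these 801 (23.5%), and for 565 of the 11230 without a match (5.03%). At the stricter threshold, which 1% of flank windows exceed, 200 TSSs (1.66%) had a match and 137 of them (68.5%) a member peak. The CTCF-core sequence described below lay in 906 of the same windows (7.53%), and a member peak was at the gene for 59 of these (6.51%), against 694 of 11125 without it (6.24%). These counts are descriptions, since TSSs of a gene share sequence and peaks.

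Peak strength followed the same order of classes as the site. The signal, which is the authors' deposited value for each peak on a scale not stated in the sources used here, had a median of 719 in lead members (lowest 145, quartiles 352 and 1407, highest 4576). Head-to-head lead summits had a median of 951 and non-promoter lead summits one of 422. Above the median of all lead summits, which was 629, were 245 of 435 lead members (56.3%, 51.5 to 61.0%). The same held for 128 of 194 head-to-head summits (66.0%, 58.8 to 72.6%), and the odds ratio of stand-alone to head-to-head peaks was 0.665 (two-sided Fisher's exact test, adjusted p = 0.0418). Of non-promoter summits, 167 of 451 (37.0%, 32.6 to 41.7%) were above it, and the odds ratio of stand-alone to non-promoter peaks was 2.19 (adjusted p = 5.69e-08, same exact test). The difference from head-to-head peaks did not pass the same exact test under 4 alternatives. These were shoulder summits kept (odds ratio 0.826, exact test, adjusted p = 0.274), 250 bp to a TSS (0.710, adjusted p = 0.126), the stronger 50% of the list (0.876, adjusted p = 0.540) and replicate 3 left out (0.732, adjusted p = 0.124).

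Within lead members, the share with the site went up with the signal. All lead summits were ordered by signal and cut into 4 groups of equal size. From the lowest to the highest group, the site lay in 34.8% of 92, 59.2% of 98, 77.1% of 118 and 88.2% of 127 lead members. Head-to-head summits had 36.4%, 61.4%, 87.3% and 97.3% in the same order, and non-promoter summits 39.7%, 46.9%, 67.0% and 72.9%. The matrix here was the one learned on head-to-head and non-promoter summits. Their shares thus come from summits used for learning, and those of lead members do not. In the lowest group the 3 classes had overlapping intervals, and in the highest the interval of lead members (81.3 to 93.2%) overlapped both that of head-to-head summits (90.5 to 99.7%) and that of non-promoter summits (60.9 to 82.8%).

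**Figure D1:**
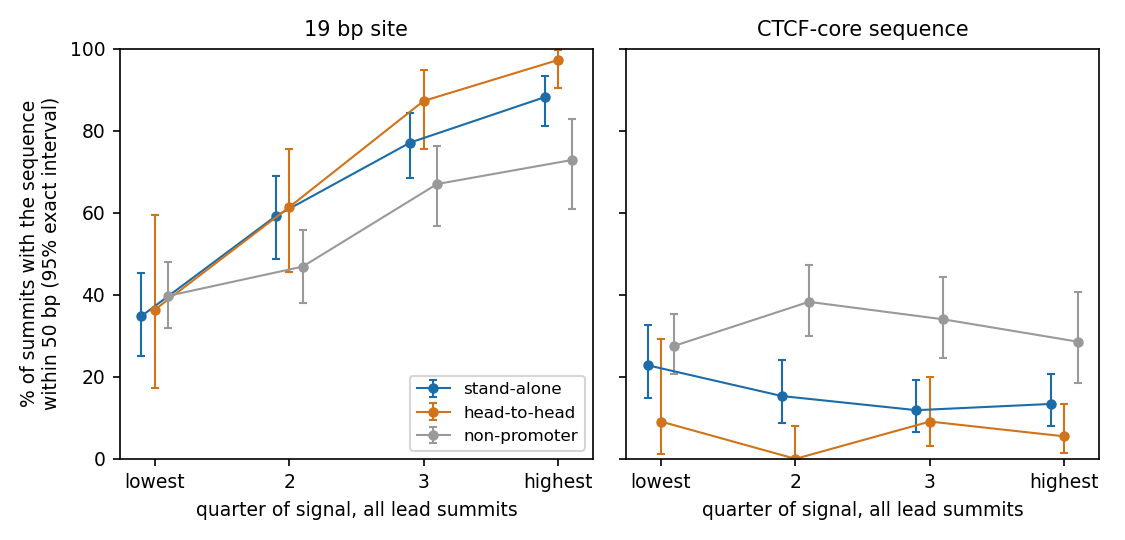
Share of lead summits with the 19 bp site (left) and the CTCF-core sequence (right) within 50 bp, in percent with exact 95% intervals, over 4 groups of equal size by deposited signal, for stand-alone, head-to-head and non-promoter summits. In stand-alone peaks the site goes from 34.8% in the lowest group to 88.2% in the highest, while the CTCF-core sequence is at 22.8% in the lowest and 13.4% in the highest. The site matrix was learned on the head-to-head and non-promoter summits shown, and the CTCF-core matrix on the non-promoter summits.

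The summits sat on 1 side of the TSS. Position 0 is the TSS and negative positions lie upstream on the strand of the gene. The rule used the unsigned distance to a TSS, but it also left out summits near head-to-head TSSs, which are defined by strand. The side was thus not wholly free of the rule. Of 434 lead members not exactly at a TSS, 405 lay upstream, or 93.3% (90.5 to 95.5%, exact binomial test against 50%, two-sided, p = 6.48e-86). The share was 92.9% for 211 lead members at genes of the plus strand and 93.3% for 224 at genes of the minus strand. The median position was -111 bp, with quartiles at -248 and -62 bp. Of head-to-head lead summits, 184 of 194 (94.8%) lay upstream, so a high share is not particular to stand-alone peaks. A summit between facing TSSs is upstream of either one, so the head-to-head share partly follows from the class. The median of head-to-head lead summits was -76 bp, but there the distance is limited by the facing TSS.

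Pooled candidate regions at the same kind of promoter were upstream less often. These were 2808 candidate summits over 300 bp from any IDR summit, from a list that was deposited as peaks and background. Since IDR summits lay mostly upstream, this gap leaves out upstream candidates more than downstream ones at promoters with a member. How far it moved the share was not tested. Upstream lay 405 of 434 lead members (93.3%), against 1439 of 2803 other candidates not at position 0 (51.3%, 49.5 to 53.2%). The odds ratio was 13.2 (two-sided Fisher's exact test, p = 7.69e-73). Among the 1000 strongest other candidates, 571 of 999 (57.2%) lay upstream, and the odds ratio of lead members to these was 10.5 (p = 1.09e-48, same exact test). This comparison was chosen after the data were seen.

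**Figure D2:**
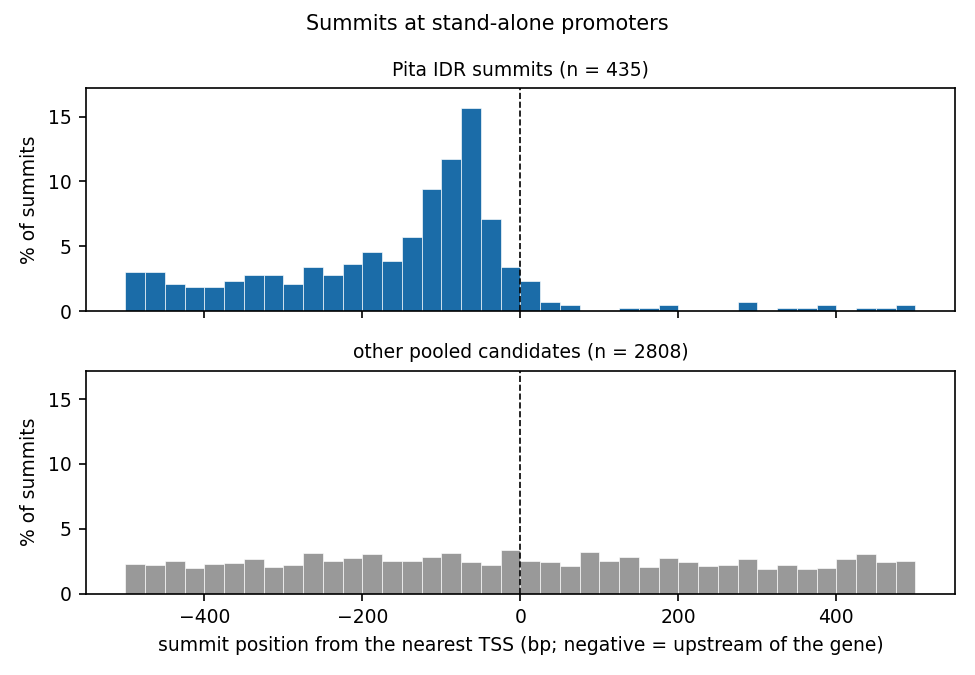
Position of summits from the nearest TSS in bp, in bins of 25 bp, as a percentage of summits, for 435 lead Pita peaks at stand-alone promoters (above) and 2808 other pooled candidates at such promoters (below). The Pita summits pile up just upstream of the TSS, with 93.3% upstream, whereas the other candidates show no such pile, with 51.3% upstream (57.2% among the strongest 1000).

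A window from 50 to 150 bp upstream held 187 of 435 lead members (43.0%, 38.3 to 47.8%), against 307 of 2808 other candidates (10.9%, 9.80 to 12.1%). The window was chosen after the positions were seen. It held 150 of 293 lead members with the site (51.2%, 45.3 to 57.1%), against 37 of 142 without it (26.1%, 19.1 to 34.1%), an odds ratio of 2.98 (two-sided Fisher's exact test, p = 6.12e-07). Lead members with the site had a median position of -94 bp and 94.9% of them lay upstream, against -182 bp and 89.4% for those without it. With lead members cut into 4 groups by their own signal, the window held 25.7%, 32.1%, 47.2% and 67.0% from the lowest group to the highest. The share upstream was 85.3%, 91.7%, 98.1% and 97.2% in the same order.

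The site had a slight preference for 1 strand. Read towards its CC end, it lay on the strand of the gene in 122 of 293 lead members, or 41.6% (35.9 to 47.5%), and on the opposite strand in 171 (exact binomial test against 50%, two-sided, p = 0.00496). At genes of the plus strand 40.4% lay on the strand of the gene and at genes of the minus strand 42.7%. Where the site centre was 50 to 150 bp upstream, 53 of 156 (34.0%, 26.6 to 42.0%) were on the strand of the gene, and elsewhere 69 of 137 (50.4%, 41.7 to 59.0%). The difference between these positions was not tested.

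**Figure D3:**
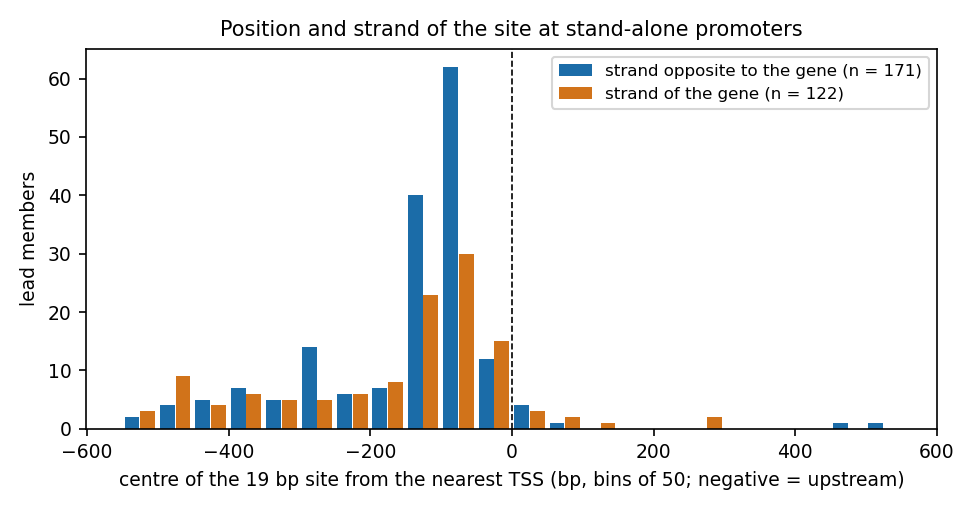
Number of lead members by the position of the centre of the 19 bp site from the nearest TSS, in bins of 50 bp, for 171 sites on the strand opposite to the gene and 122 on the strand of the gene. Sites on both strands are most frequent within 150 bp upstream, where those on the opposite strand are more numerous.

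A CTCF-like sequence lay under a smaller set of these peaks. Its matrix was learned on non-promoter lead summits from the word AGATGGCG, part of the core read by CTCF, and was added after the data were seen. It lay within 50 bp of 67 of 435 lead member summits (15.4%, 12.1 to 19.1%), against 24 of 435 flank windows (5.52%, 3.57 to 8.10%, exact McNemar test, two-sided, p = 5.69e-06). Among non-promoter lead summits, on which the matrix was learned, it lay in 145 of 451 (32.2%), so the stand-alone share was lower than theirs in this description, which has no test. Among head-to-head lead summits it lay in 11 of 194 (5.67%, 2.86 to 9.92%), and the odds ratio of stand-alone to head-to-head peaks was 3.03 (two-sided Fisher's exact test, p = 3.79e-04, not adjusted). This odds ratio was 1.81 with a limit of 250 bp to the TSS (p = 0.0620), 1.65 in the stronger 50% of the list (p = 0.223) and 1.59 without replicate 3 (p = 0.0919), and did not pass the same exact test there. Unlike the site, the sequence was not more frequent in strong lead members, with 22.8%, 15.3%, 11.9% and 13.4% from the lowest of the 4 signal groups to the highest.

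Taking the sequences jointly, 262 lead members (60.2%) held the site alone, 31 held both, 36 held the CTCF-core sequence alone and 106 (24.4%) neither. The median signal was 934 with the site alone, 1170 with both, 291 with the CTCF-core sequence alone and 429 with neither. Replicate 1 alone gave the same order, with medians of 427, 566, 120 and 181, and so did replicate 3, with 507, 627, 173 and 226. The nearest TSS belonged to a non-coding gene in 8 of the 36 peaks with the CTCF-core sequence alone and in 9 of the 262 with the site alone. Occupancy by CTCF was not measured in this series.

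Examples of the CTCF-core sequence are those of the 3 strongest lead members that had it without the site, shown beside the site for comparison. Paip2 encodes a translation inhibitor that binds the poly(A)-binding protein (chr3R:12980747-12980775, minus strand). The other 2 are at a valine tRNA gene (chr3R:17617326-17617354, minus strand) and at a long non-coding RNA gene (chrX:20760523-20760551, plus strand). Capitals mark the 19 bases of the match. That of Paip2 passed the threshold but departs from the core, with GTCT where the other 2 have GGCG.
Paip2: attgaCTGCCAATAGATGTCTGCTttcac
tRNA:Val-CAC-1-1: aaaaaTTTTCGTTAGATGGCGTAAaaatg
lncRNA:CR43838: gctgcGCCCTCATAGGTGGCGCTTtcatg
Signal was 1771 at Paip2 (772 in replicate 1 and 979 in replicate 3), with the summit 10 bp downstream of the TSS. At tRNA:Val-CAC-1-1 it was 1427 (615 and 848 in replicates 1 and 3), 457 bp upstream, and at lncRNA:CR43838 it was 1221 (520 and 702), 386 bp downstream. None of the 3 could be among the 20 strongest members (2742 or more), since those 20 all held the site.

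Other promoter words were rare under the summits. Of 8 words searched on both strands within 50 bp of the summit, 0 differed between stand-alone and head-to-head lead summits (0% called; two-sided Fisher's exact test, Benjamini-Hochberg over the 8 words, lowest adjusted p = 0.301), and 0 had an unadjusted p under 0.05. GGTCACAC, part of motif 1 read by M1BP, lay in 4.83% of lead members and 4.12% of head-to-head summits, against 0.607% of the 12031 promoter windows. TATCGATA, the palindrome read by DREF and BEAF-32, lay in 3.68% of lead members and 7.22% of head-to-head summits, against 1.75% of the promoter windows. GAGAGAG, read by GAGA factor, lay in 1.15% of lead members, 1.61% of the members' own flanks and 5.30% of promoter windows. The TATA-box word TATAAA lay in 9.20% of lead members, against 11.3% of head-to-head summits, 14.3% of promoter windows and 17.0% of the members' own flanks. It lay in 17 of 293 lead members with the site (5.80%) and in 21 of 106 with neither sequence (19.8%). The initiator word TCAGTT was at 4.37% and the E-box word CAGCTG at 2.76% of lead members, against 6.90% and 5.44% of promoter windows. In the members' own flanks these words were at 3.91% and 3.22%. The promoter windows end 50 bp upstream of the TSS, and the member windows follow the summit. The counts thus do not show how many of these promoters have a TATA box or an initiator. AGATGGCG and AGGTGGCG, both within the CTCF core, lay in 2.99% and 2.53% of lead members, against 0.324% and 0.216% of promoter windows.

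The replicates ranked the members alike. A candidate summit of replicate 1 lay within 100 bp of 533 of the 545 members (97.8%), and one of replicate 3 within 100 bp of 542 (99.4%). For lead members each replicate had 433 of 435, and 432 were matched in both. Over those 432, signal was 41.3 to 2127 in replicate 1 (median 342) and 63.4 to 2457 in replicate 3 (median 390), and it was higher in replicate 3 for 376. The median log2 difference, replicate 1 minus replicate 3, was -0.22 (SD 0.28 over peaks), and 428 of 432 lay within 2-fold of it. Across peaks, Pearson's r of log2 signal was 0.976 and Spearman's rho 0.981, as a description, since the peaks of a library share its depth and were selected as reproducible. The labels call the libraries biological replicates but do not say whether the embryos came from separate collections, so part of their spread may be technical, and read depth is unknown because the lists hold no read counts.

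The largest changes of rank between replicates were at 5 lead members. Among them were both lead members at CG12054, on arm 3R, which were higher in replicate 1. The summit 19 bp upstream of its TSS had 416 in replicate 1 and 206 in replicate 3, and the summit 488 bp downstream had 364 and 263. The other 3 were higher in replicate 3. Signal in replicates 1 and 3 was 560 and 1163 at pan, the TCF factor of Wnt signalling. It was 160 and 318 at Mcm7, a subunit of the replicative helicase, and 435 and 808 at Atpalpha, a subunit of the sodium pump. These 3 summits lay 255 to 482 bp upstream and had no site.

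**Figure D4:**
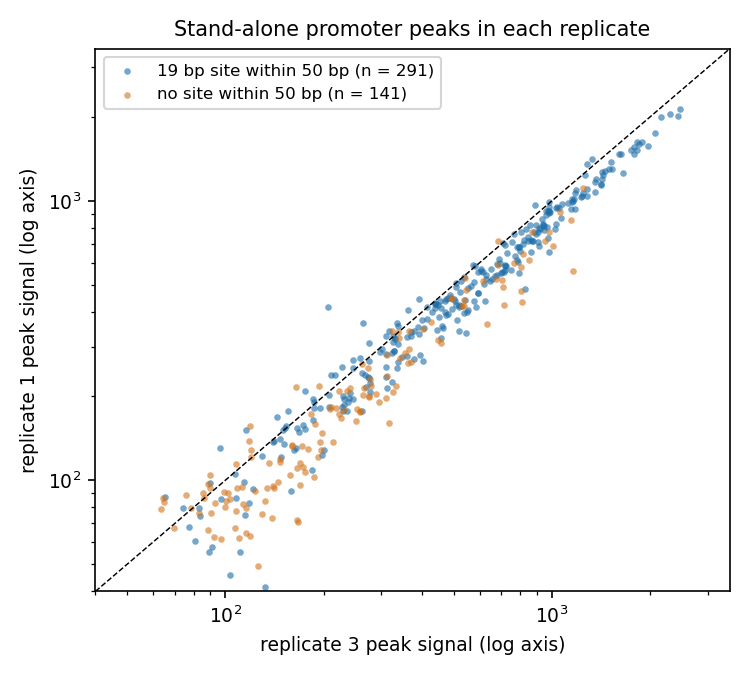
Deposited signal of 432 lead members in replicate 1 (vertical, log axis) and replicate 3 (horizontal, log axis), by whether the 19 bp site lies within 50 bp of the summit; the dashed line marks equal signal. Points follow a line just below equality (median log2 difference -0.22), and most of the strongest peaks hold the site.

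The 20 strongest members had signals of 2742 to 4576, with 1260 to 2127 in replicate 1 and 1328 to 2457 in replicate 3. All 20 lay upstream and all 20 held the site, 16 were 50 to 150 bp upstream, and 3 also held the CTCF-core sequence. The site was on the strand of the gene in 9 of them and on the opposite strand in 11. Among all candidates of a replicate, the lowest-ranked of the 20 stood at rank 41 in replicate 1 and 61 in replicate 3.

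The 20 are described by their roles, grouped by hand. ATPsynC, subunit c of the mitochondrial ATP synthase, had the highest signal of all members at 4576, with 2127 in replicate 1 and 2457 in replicate 3. Its summit lay 78 bp upstream. The ATPsynC TSS (chr3R:31219630, minus strand) faces that of CG12054 (chr3R:31220702, plus strand), just beyond the 1000 bp of the head-to-head rule. Mpcp2, a mitochondrial phosphate carrier, had 3462 (1602 and 1847 in replicates 1 and 3) at 126 bp upstream and also held the CTCF-core sequence. MCU, the pore of the mitochondrial calcium uniporter, had 3845 (1755 and 2062) at 456 bp upstream, which was the farthest of the 20. PhKgamma, the catalytic subunit of phosphorylase kinase, had 3355 (1564 and 1784) at 121 bp upstream. Outside the top 20, UQCR-Q of respiratory complex III had 2664 (1235 and 1429) at 64 bp upstream.

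Others have roles in translation. RpL30, which is part of the large ribosomal subunit, was the second strongest with 4436 (2008 in replicate 1 and 2436 in replicate 3), 63 bp upstream. Lk6, a kinase of the translation initiation factor eIF4E, had 3531 (1576 and 1962) at 117 bp upstream. A summit 97 bp upstream of both mRpL13, a mitochondrial ribosomal protein, and CG10602 had 2798 (1298 and 1493), and the peak cannot be given to either gene.

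A further group acts in signalling or on the cytoskeleton. Abl, a tyrosine kinase of axon guidance and epithelial shape, had 4156 (2001 in replicate 1 and 2157 in replicate 3) at 118 bp upstream. Cib, an actin-binding protein with thymosin-like repeats, had 4357 (2048 and 2304) at 202 bp upstream, and Unc-115a, another actin-binding protein, had 3434 (1617 and 1816) at 106 bp upstream. N, the Notch receptor, had 3320 (1522 and 1825) at 110 bp upstream, and Lnk, an adaptor of the insulin receptor, had 3278 (1476 and 1779) at 86 bp upstream, and both also held the CTCF-core sequence. Galphai, an inhibitory G protein subunit, had 3083 (1473 and 1627) at 79 bp upstream.

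The last 7 were also placed by hand. Ec, required for cell sorting in the eye, had 3510 (1626 in replicate 1 and 1881 in replicate 3), and Sap-r, a saposin precursor, had 3281 (1520 and 1750). Lac, a cell adhesion protein of septate junctions, had 3047 (1467 and 1601), and Ziz, an exchange factor of the DOCK family, had 2917 (1260 and 1647). Cindr, an adaptor that links membranes to actin, had 2879 (1377 and 1514), and Rubicon, a regulator of autophagy, had 2818 (1300 and 1521). Nemy, a cytochrome b561, had 2742 and was the only 1 of the 20 with the higher value in replicate 1 (1415, against 1328 in replicate 3).

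Strong members without the site were fewer. Pomp led them with 2341 (1106 in replicate 1 and 1245 in replicate 3) at 103 bp upstream. CG33465 had 2002 (856 and 1144) at 438 bp upstream, and shot, a spectraplakin that links actin and microtubules, had 1979 (910 and 1060) at 131 bp upstream. Pan, at 1788, and Paip2, at 1771, completed the 5, and Paip2 alone of them held the CTCF-core sequence.

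Pita peaks were at a minority of stand-alone genes. Of 8916 protein-coding genes without a head-to-head TSS, 419 had a member summit within 500 bp of a TSS, which is 4.70%, and of 4309 non-coding genes 59 had one, which is 1.37%. The nearest TSS was that of a protein-coding gene for 410 of the 435 lead members (94.3%), of a long or other non-coding RNA gene for 17, of a tRNA gene for 5, of a snoRNA gene for 2 and of an snRNA gene for 1. More than 1 gene lay within 500 bp for 35 (8.05%). The gene lists that follow were chosen with earlier results of these data known and are described by counts, with no test.

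Cytoplasmic ribosomal protein genes had the most member peaks of any list. Of the 37 cytoplasmic ribosomal protein genes with a stand-alone promoter, 12 had a member peak (32.4%, 18.0 to 49.8%), beside 4.70% of all stand-alone protein-coding genes. All 12 summits lay upstream, at 18 to 481 bp, 10 held the site, and 3 were in the window of 50 to 150 bp. Their signals were 219 to 4436 with a median of 1071. After RpL30 came RpL22, with 2501 (1239 in replicate 1 and 1260 in replicate 3), and RpL17, with 1720 (734 and 972) at 112 bp upstream. The RpL17 summit is also 193 bp from the TSS of tRNA:Phe-GAA-1-2. The 2 without the site, RpS9 at 522 and RpS4 at 219, were among the weaker ones.

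Other lists of the translation and energy machinery had 2 or fewer genes with a peak. These lists hold the genes whose current symbol carries the name of the family. Peaks lay at 1 of 15 genes with an mRp symbol (mRpL13, through the summit it shares with CG10602), 2 of 44 genes of the respiratory chain and ATP synthase (ATPsynC and UQCR-Q) and 1 of 26 translation factors (eIF4G2, 1858, with 893 in replicate 1 and 959 in replicate 3, at a summit that it shares with CG33111). They lay at 1 of 22 proteasome genes (Rpt6, 407, with 216 and 193), and at 0 of 10 aminoacyl-tRNA synthetase genes and 0 of 4 genes with an Atg symbol. The lists with a peak had shares of 3.85 to 6.67%, near the 4.70% of all stand-alone protein-coding genes. The intervals of the lists without one (up to 30.8% and 60.2%) include that share. Genes of the same processes under other symbols are outside these counts, among them Rubicon and tko. Tko encodes a protein of the small mitochondrial ribosomal subunit and had 2262 (1034 in replicate 1 and 1225 in replicate 3) at 37 bp upstream, with the site.

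Smaller lists gave counts that single genes can move, to be read beside the 4.70% of all stand-alone protein-coding genes. Of 10 signalling kinase genes, 4 had a member peak, namely Abl, Lk6, InR and Raf, the kinase upstream of MAP kinase (1362, with 601 in replicate 1 and 762 in replicate 3). Of 8 actin cytoskeleton genes, 3 had one, namely cib, Act42A (1467, with 685 and 791) and ena (236, with 95.7 and 140). Of 2 spindle checkpoint genes, 1 had one, mad2, which keeps anaphase from starting early, with 2158 (1012 and 1153) at 111 bp upstream and the site.

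Chromatin and replication genes had a few peaks, to be read in the same way beside 4.70%. In the Polycomb and Trithorax list 2 of 12 had one, trx, a histone methyltransferase, with 1651 (774 in replicate 1 and 867 in replicate 3) and kis, a chromatin remodeller, with 847 (383 and 451). Of 9 replication genes, 2 had one, Mcm7 and Gnf1 (457, a shoulder summit). Among 9 insulator protein genes, pita itself had 1 member summit, 319 bp downstream of its TSS (534, with 223 and 252). It was a shoulder, within 300 bp of a stronger summit of the list, and had the CTCF-core sequence without the site. BEAF-32 had 167 (66.6 and 88.2) at 30 bp upstream. In the JAK/STAT list 2 of 7 had one, Stat92E, the transcription factor of the pathway, with 335 (152 and 175) and Socs16D with 186 (62.9 and 119). Peaks lay at 0 of 8 Hox genes and 0 of 10 heat shock genes. Their intervals (up to 36.9% and 30.8%) include the 4.70% of all stand-alone protein-coding genes. Orc4 has a head-to-head promoter and so was no member.

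**Figure D5:**
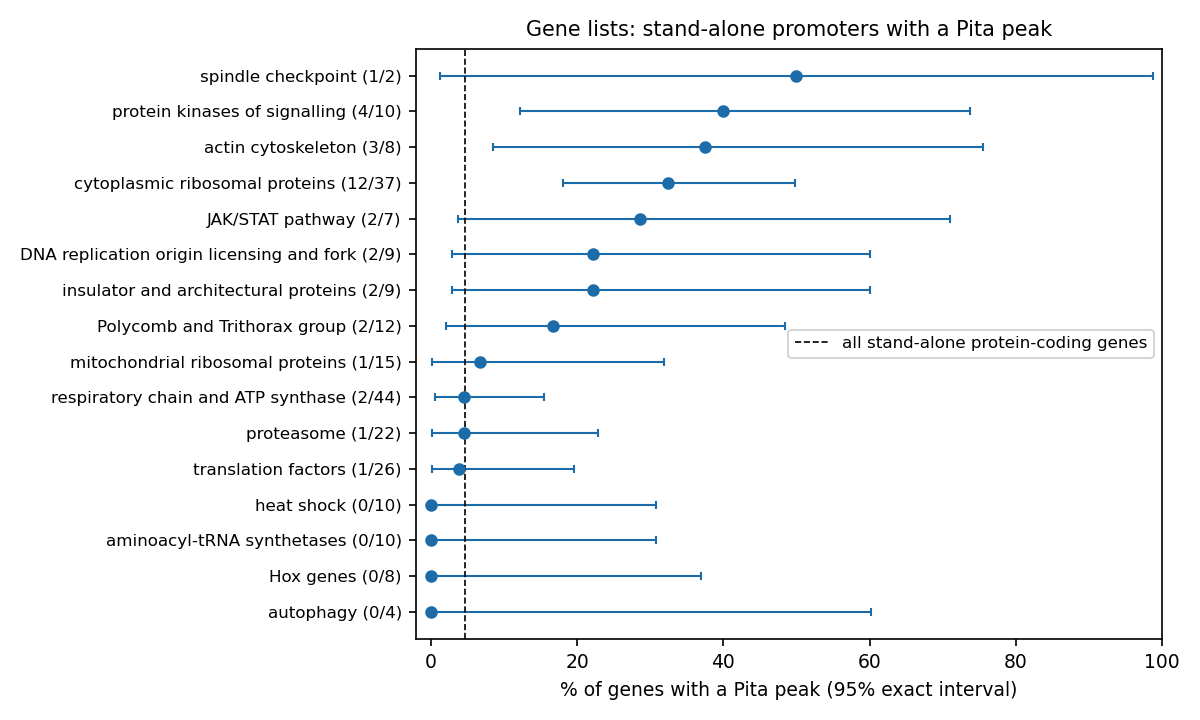
Percentage of genes with a stand-alone promoter that have a member peak, for 16 protein-coding lists with exact 95% intervals; the counts stand beside each name and the dashed line marks all stand-alone protein-coding genes (4.70%). Cytoplasmic ribosomal proteins are at 32.4%, and the lists of under 10 genes have wide intervals.

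A small number of members lay at non-coding genes. Of 295 tRNA genes, 11 had a member summit within 500 bp of the TSS (3.73%, beside 1.37% of all non-coding genes), through 9 summits, of which 5 held the site and 2 the CTCF-core sequence. The strongest, at tRNA:Ser-TGA-2-1 and tRNA:Ser-TGA-1-1 together, had 1858 (963 in replicate 1 and 887 in replicate 3), 114 bp upstream of the nearer gene, with the site. Of 306 snoRNA and snRNA genes, 5 had one (1.63%, near the 1.37% of all non-coding genes), with signals of 149 to 264. The strongest were at snoRNA:Or-CD4, with 264 (119 in replicate 1 and 147 in replicate 3), and at snoRNA:Psi28S-3342, with 232 (93.5 and 141). The U6 genes snRNA:U6:96Ac and snRNA:U6:96Ab shared a summit (223). Each of these named summits had the CTCF-core sequence without the site. Among lead members with only non-coding TSSs within 500 bp, lncRNA:CR42657 was the strongest, with 2118 (936 and 1173) at 239 bp upstream and the site. lncRNA:CR44539 had 1122 (517 and 616) at 201 bp upstream and the CTCF-core sequence without the site.

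Members were spread over the chromosome arms. Lead members numbered 83 on X, 83 on 2L, 77 on 2R, 81 on 3L, 108 on 3R and 3 on chromosome 4. On X lay 83 of 435 (19.1%, 15.5 to 23.1%), against 46 of 194 head-to-head lead summits (23.7%, 17.9 to 30.3%, odds ratio 0.759, two-sided Fisher's exact test, adjusted p = 0.240). Against 97 of 451 non-promoter lead summits (21.5%, 17.8 to 25.6%), the odds ratio was 0.861 (adjusted p = 0.404, same exact test), so neither difference passed the threshold.

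The limit of 500 bp has no gap in the data. Just inside were lead members at pk (498 bp, signal 192, no site), CG8861 (497 bp, 156, with the site) and Vm32E (495 bp, 642, with the site). Just outside were summits near sp3 (501 bp, 1171, no site), sff (502 bp, 304, with the site) and CG6040 (507 bp, 2046, no site).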

How the data were processed

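The series holds ChIP-seq peak lists from 2 libraries, biological replicates 1 and 3 of 1 group. Per the deposited notes, candidates were called per replicate and on the pooled libraries against a control alignment, and the optimal IDR list was derived from these. Neither aligner, peak caller nor IDR threshold was given in the sources used here. Each peak's signal is the authors' deposited value and was used only to describe and rank peaks. The dm3 lists were not used.

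Summits on dm6 were classed by Ensembl release 115 genes, without transposable elements, and sequence was read from the RefSeq dm6 genome. The matrix was started from the words ending in AACC with the lowest p, an ending known from earlier results, and refined in 8 rounds over windows of 50 bp on either side of a summit. The CTCF-core matrix was made the same way from words ending in GGCG. Fisher's exact, exact McNemar and exact binomial tests were two-sided, with a threshold of 0.05 and Clopper-Pearson intervals at 95%. The site search, the shoulder rule and these tests were run on simulated data with known answers. Candidates matched within 100 bp.

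Members and lists were chosen with earlier results of these data known. Named are the 20 strongest lead members, the 3 strongest of each of 18 gene lists, the 5 strongest without the site, the 5 strongest at non-coding genes alone, those nearest the 500 bp limit, the 5 whose rank changed most between replicates, and pita, Orc4 and mad2. RpS9, RpS4, tRNA:Phe-GAA-1-2, snRNA:U6:96Ab, lncRNA:CR44966 and the sequences printed were chosen after their values were seen. Written symbols that are older names were matched through RefSeq synonyms (phl to Raf, for example); lat, Tor and Z4, which name more than 1 gene, were left out. Tko was added after its value was seen. Software was SciPy 1.17.1, pandas 2.3.3, NumPy 2.4.6 and matplotlib 3.10.9 under Python 3.11.15.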

Additional observations from a re-analysis of the deposited data

How the results depend on the processing

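Alternatives kept shoulder summits, took 250 or 1000 bp to a TSS, changed the head-to-head rule, took the stronger 50% of the list, each replicate alone, a stricter match threshold, a wider window or the right flank. The shares with the site against the flank, upstream and on the strand of the gene, and both comparisons of lead members with non-promoter peaks in site and signal, stayed on the same side of the threshold under each alternative run for them. Against head-to-head peaks, the odds ratio with shoulder summits kept was 0.811 for the site, 0.826 for signal above the median and 0.636 for X, where X passed (adjusted p = 0.0262, Fisher's exact test). It was 0.710 for signal and 1.81 for the CTCF-core sequence with 250 bp, 0.606 for X with head-to-head TSSs within 500 bp (adjusted p = 0.0432, same exact test), and 0.876 for signal and 1.65 for the CTCF-core sequence in the stronger 50%. All of these signal and CTCF-core values, and the 0.811 for the site, missed the threshold. Leaving out a replicate gave 0.602 to 0.732 for signal and 1.59 to 2.04 for the CTCF-core sequence, the end nearer 1 without replicate 3. For X against non-promoter peaks the odds ratio turned to 1.17 with 250 bp and 1.46 in the stronger 50%, and did not pass either way. Genes with a peak numbered 273 in the stronger 50% of the list. At a matching distance of 200 bp, replicate 1 matched 98.9% and replicate 3 100% of members. The causes were not tested. Depth is unknown, so what a weak peak could show cannot be stated.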

Other observations

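The gene next upstream was counted for genes with a member summit and for all stand-alone genes. The protein-coding gene next upstream lay in tandem for 305 of 418 genes with a member summit (73.0%), against 5751 of all 8907 stand-alone protein-coding genes with such a neighbour (64.6%). It lay in tandem within 1000 bp for 226 (54.1%), against 3256 (36.6%), and the median gap was 579 bp, against 719 bp. An overlapping neighbour stood at 24 genes with a member summit (5.74%), against 1558 of all (17.5%). These are descriptions with no test, chosen after the data were seen. The reference includes the genes with a member summit, and the rule for members leaves out summits near head-to-head TSSs.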
